A study of Mus musculus with 12 samples.

Results

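The CXC chemokines described here are 7 genes, *Cxcl1*, *Cxcl2*, *Cxcl3*, *Cxcl9*, *Cxcl10*, *Cxcl14* and *Cxcl16*, chosen by symbol and read as the rows of the deposited count table that carry their Ensembl identifiers in GENCODE M21. They are 7 of the 53379 genes listed, and 5 of them were among the 12386 genes that had enough counts to be tested. Bone marrow-derived macrophages (BMDMs) were grown for 7 days in L929-conditioned medium from 4 male C57Bl/6J mice, and the study's mice were 8 to 20 weeks old. From every mouse, 1 culture received no drug and the others received 1 µM fenoterol, an agonist of the beta2-adrenergic receptor (B2AR), for either 1 h or 4 h, so that there were 3 groups with 4 libraries in each. The labels name no inflammatory stimulus, so all values below belong to resting, cultured macrophages. Fenoterol was given without a change of medium and there was 1 untreated group, so time in culture and length of treatment cannot be told apart. The comparison asks how a catecholamine signal to macrophages changes the transcripts of this chemokine family.

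CXC chemokines are small secreted proteins that direct the movement of leukocytes through G protein-coupled receptors. CXCL1, CXCL2 and CXCL3 attract neutrophils through CXCR2, and their genes are classical targets of nuclear factor kappa B (NF-kB) in macrophages, with short-lived mRNAs that carry AU-rich elements (AREs). CXCL9 and CXCL10 are induced by interferons and attract activated T cells and natural killer cells through CXCR3, CXCL14 is a homeostatic chemokine of epithelia, and CXCL16 is made as a membrane protein that binds CXCR6, takes up oxidized lipoprotein and is shed by the protease ADAM10.

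Of the 7 genes, 5 lie on chromosome 5 of GRCm38. *Cxcl3* (ENSMUSG00000029379, chr5:90786103-90789600, plus strand), *Cxcl1* (ENSMUSG00000029380, chr5:90891241-90893115, plus strand) and *Cxcl2* (ENSMUSG00000058427, chr5:90903871-90905938, plus strand) belong to a cluster of 7 CXC ligand genes that spans 147 kb and also holds *Cxcl5*, *Ppbp*, *Pf4* and *Cxcl15*. *Cxcl9* (ENSMUSG00000029417, chr5:92321347-92328079, minus strand) and *Cxcl10* (ENSMUSG00000034855, chr5:92346638-92348889, minus strand) are neighbours separated by 18.6 kb. *Cxcl14* (ENSMUSG00000021508, chr13:56288643-56296551, minus strand) and *Cxcl16* (ENSMUSG00000018920, chr11:70453983-70459984, minus strand) lie alone.

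RefSeq promoters of GRCm38.p6, 250 bases before and 50 bases after the start of transcription, were at hand for 6 of the 7 genes, all but *Cxcl16*. The 250 bases before the start are printed for 5 of them, because the NF-kB letters recur in *Cxcl1*, *Cxcl2* and *Cxcl3* and the interferon response letters in *Cxcl10* and *Cxcl14*. Capitals mark matches to the NF-kB letters (GGG and TTTCC with any 2 bases between them), the interferon-stimulated response element (ISRE) letters (TTTC, any 2 bases, TTTC), the cAMP response element (CRE) core TGACG and the AP-1 letters TGANTCA, searched on both strands, and to the TATA box TATAAA, searched on the gene's strand.
*Cxcl1*, chr5:90890995-90891244, plus strand: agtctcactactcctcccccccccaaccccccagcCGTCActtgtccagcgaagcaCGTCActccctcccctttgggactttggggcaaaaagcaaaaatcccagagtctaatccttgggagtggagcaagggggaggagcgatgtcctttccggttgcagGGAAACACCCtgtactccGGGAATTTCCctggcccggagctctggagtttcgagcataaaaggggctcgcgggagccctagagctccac
*Cxcl2*, chr5:90903649-90903898, plus strand: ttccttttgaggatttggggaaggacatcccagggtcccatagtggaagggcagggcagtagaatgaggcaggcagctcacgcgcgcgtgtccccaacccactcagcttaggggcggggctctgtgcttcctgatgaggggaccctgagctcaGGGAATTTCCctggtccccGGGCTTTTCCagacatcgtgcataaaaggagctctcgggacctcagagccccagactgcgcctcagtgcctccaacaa
*Cxcl3*, chr5:90785851-90786100, plus strand: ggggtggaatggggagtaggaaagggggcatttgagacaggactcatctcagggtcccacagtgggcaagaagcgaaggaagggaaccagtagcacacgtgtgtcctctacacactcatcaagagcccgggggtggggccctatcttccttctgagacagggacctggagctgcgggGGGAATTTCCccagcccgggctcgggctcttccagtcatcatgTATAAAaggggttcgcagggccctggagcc
*Cxcl10*, chr5:92348890-92349139, minus strand: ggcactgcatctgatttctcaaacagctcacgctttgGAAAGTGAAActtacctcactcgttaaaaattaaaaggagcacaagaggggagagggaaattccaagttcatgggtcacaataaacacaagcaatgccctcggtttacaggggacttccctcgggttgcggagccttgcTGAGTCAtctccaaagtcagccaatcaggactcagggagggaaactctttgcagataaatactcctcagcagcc
*Cxcl14*, chr13:56296552-56296801, minus strand: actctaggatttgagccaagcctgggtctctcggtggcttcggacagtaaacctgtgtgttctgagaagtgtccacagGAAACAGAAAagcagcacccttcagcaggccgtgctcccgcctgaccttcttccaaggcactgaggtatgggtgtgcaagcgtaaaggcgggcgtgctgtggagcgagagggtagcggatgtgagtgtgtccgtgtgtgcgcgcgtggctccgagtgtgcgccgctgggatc
The NF-kB letters were found in the promoters of *Cxcl1*, *Cxcl2* and *Cxcl3* and in no other of the 6, whereas 1.63% of all 32851 promoters in the table hold them. Only this form was searched. A promoter without it, such as that of *Cxcl10*, may hold NF-kB sites with other letters. *Cxcl1* had matches at -89 to -80 and at -71 to -62, *Cxcl2* at -97 to -88 and at -78 to -69, and *Cxcl3* 1 match at -73 to -64, counted from the start of transcription. The same 10 letters, GGGAATTTCC, stood in all 3 promoters. The ISRE letters, held by 3.44% of promoters, occurred in *Cxcl10* at -213 to -204 and in *Cxcl14* at -172 to -163. The full CRE TGACGTCA, in 1.79% of promoters, was found in none of the 6, and the core TGACG, in 20.8% of promoters, occurred in *Cxcl1* at -215 to -211 and at -194 to -190. *Cxcl10* held the AP-1 letters, which 7.81% of promoters hold, at -74 to -68, *Cxcl3* held TATAAA, which 8.32% hold, at -30 to -25, and *Cxcl9*, not printed, held TATAAA at -195 to -190 and AP-1 letters after the start at 31 to 37. A match is a description of letters and does not show that a factor binds there.

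Total counts per library ranged from 14580533 to 24153284, and the TMM scaling factors from 0.953 to 1.04. In the counts, all 8 macrophage markers on a fixed list, which included *Adgre1*, *Csf1r* and *Mertk*, were tested. Their summed level was 35799 to 43491 counts relative to the scaled library size (CPM). At 4 h 7 of the 8 passed the test, 3 higher and 4 lower. Of all genes tested 40.0% passed, 19.7% higher and 20.4% lower. Log2 fold changes of the 8 markers at 4 h ranged from -1.51 for *Mertk* to 2.52 for *Cd14*. The 8 lymphocyte markers summed to at most 0.319 CPM and none was tested, and the 5 dendritic cell markers summed to at most 1.98 CPM. The 8 neutrophil markers summed to 142 to 176 CPM in untreated BMDMs, 137 to 174 CPM at 1 h and 90.1 to 108 CPM at 4 h, and *Csf3r*, which encodes a receptor that macrophages also carry, was the only 1 of the 6 tested that passed at 4 h (-0.86, adjusted p = 1.22e-05 by edgeR), beside *S100a8* (0.03), *S100a9* (-0.07) and *Ngp* (-0.09). *Ly6g*, which defines mature neutrophils, had 0 or 1 count per library. Stromal markers summed to 23.4 to 73.4 CPM over the 12 libraries, with *Lum* at 0 counts.

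Fenoterol moved the CXC chemokines in different directions. *Cxcl2* was higher at both times, *Cxcl14* was higher at 4 h, *Cxcl10* was lower at 4 h, and *Cxcl16*, the most abundant of the 7, differed by a small amount at 1 h only, while *Cxcl1* did not pass the test and *Cxcl3* and *Cxcl9* lay near the count floor. At 1 h, 2 of the 5 genes tested passed an adjusted p of 0.05 in the quasi-likelihood test of edgeR (called edgeR below), *Cxcl2* and *Cxcl16*, both higher, beside 20.1% of all 12386 genes tested, 10.0% higher and 10.1% lower. At 4 h, 3 of 5 passed, *Cxcl2* and *Cxcl14* higher and *Cxcl10* lower, beside 40.0% of all genes, 19.7% higher and 20.4% lower. Between 4 h and 1 h, 3 of 5 passed, *Cxcl14* higher and *Cxcl10* and *Cxcl16* lower, beside 38.5% of all genes, 18.7% higher and 19.8% lower. With 5 genes, these shares were not read as a difference from the background. The median log2 fold change of the 5 genes was 0.39 at 1 h and 0.33 at 4 h, beside -0.0049 and 0.0042 over all genes tested. Both comparisons share the untreated libraries. In such bulk samples, fewer cells of a type and less RNA per cell cannot be told apart.

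**Figure D1:**
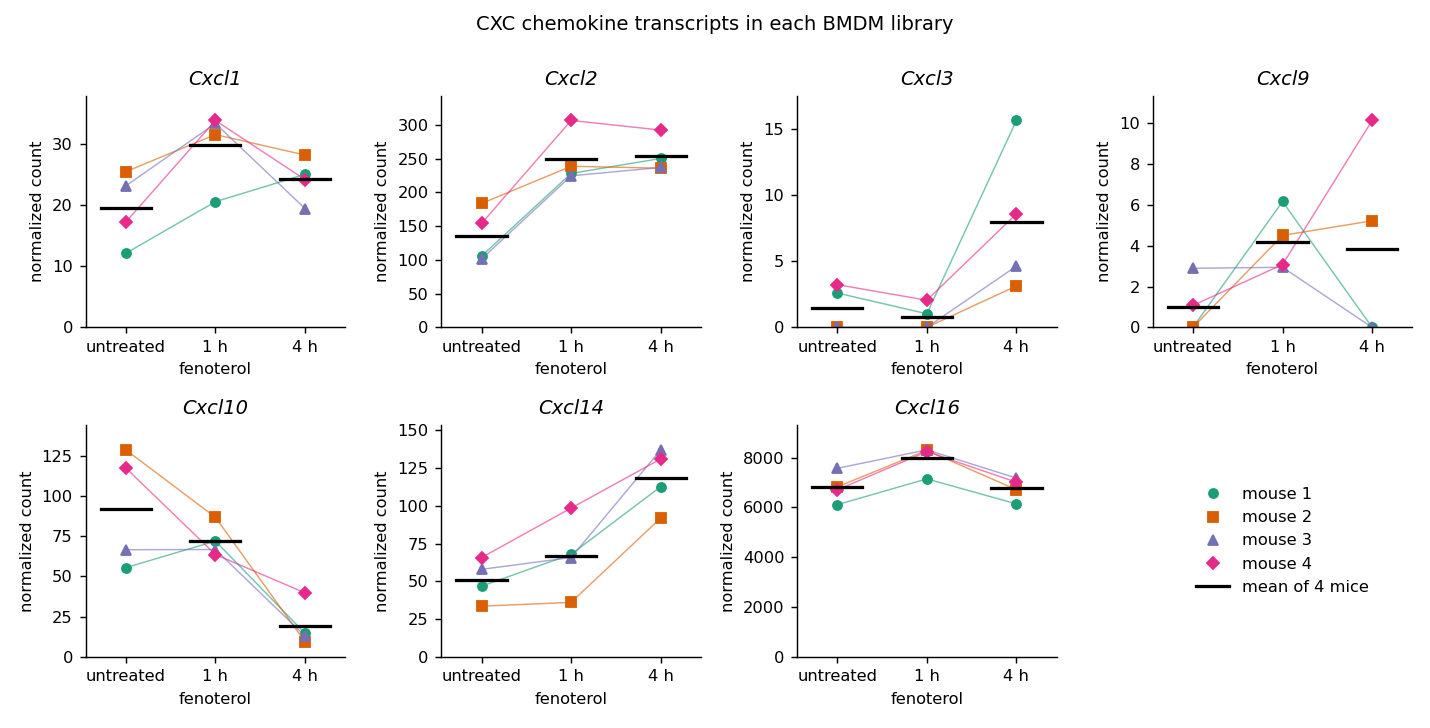
Normalized counts (counts scaled to the mean effective library size, linear axis from 0) of the 7 CXC chemokines in the 12 libraries, with lines joining the libraries of a mouse and black bars for the mean of 4 mice. *Cxcl2* rose in each of the 4 mice at both times, *Cxcl10* at 4 h lay between 9.40 and 39.8, under all untreated values, and *Cxcl3* and *Cxcl9* reached at most 15.6 and 10.1.

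The neutrophil chemokine *Cxcl2* was the member that responded at both times. Normalized counts of *Cxcl2* in mice 1 to 4 were 106, 184, 101 and 154 in untreated BMDMs, 228, 239, 225 and 307 at 1 h, and 250.3, 236, 237 and 292 at 4 h. All treated libraries lay above all untreated ones at both times, and mouse 2, which had the highest untreated level, rose least. Mean values were 136 ± 39.7 (SD, n = 4 mice) without fenoterol, 249.6 ± 38.6 after 1 h and 254 ± 26.5 after 4 h. The log2 fold change of *Cxcl2* was 0.89 (standard error 0.18, adjusted p = 0.00219 by edgeR), or 1.85-fold, at 1 h. It was 0.92 with the same standard error and an adjusted p of 0.000756, or 1.89-fold, at 4 h. Within single mice, the log2 ratio was 0.38 to 1.15 at 1 h and 0.36 to 1.24 at 4 h. Between 4 h and 1 h *Cxcl2* differed by 0.03 on the log2 scale (95% interval -0.34 to 0.39), so that a further change within this interval was not detectable.

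*Cxcl1*, which encodes a second CXCR2 ligand and lies 10.8 kb before *Cxcl2*, was scarcer than *Cxcl2*, with 14 to 34 counts per library. Its normalized counts in mice 1 to 4 were 12.1, 25.5, 23.2 and 17.2 in untreated BMDMs, 20.6, 31.5, 33.3 and 33.9 at 1 h, and 25.0, 28.2, 19.4 and 24.2 at 4 h. *Cxcl1* was higher than untreated in 4 of 4 mice at 1 h, but the groups overlapped. The log2 fold change of 0.63 (standard error 0.27, 95% interval 0.06 to 1.21) at 1 h had an unadjusted p of 0.0331 and an adjusted p of 0.122 by edgeR and did not pass. At 4 h the log2 fold change of *Cxcl1* was 0.33 (95% interval -0.25 to 0.91, adjusted p = 0.365), and it was higher in 3 of 4 mice.

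*Cxcl3*, the third gene for a neutrophil attractant on the list, was too scarce for the test across genes. It had 3, 0, 0 and 3 counts in the untreated libraries of mice 1 to 4, 1, 0, 0 and 2 counts at 1 h, and 15, 3, 5 and 11 counts at 4 h. The 4 h libraries were the highest in each mouse, but mouse 2 at 4 h had no more counts than mice 1 and 4 without fenoterol. Mean levels of *Cxcl3* were 0.0743 CPM in untreated BMDMs, 0.0392 CPM at 1 h and 0.408 CPM at 4 h. In sums of 34 against 6 counts, 4 h was 5.12-fold higher than untreated (95% counting interval 2.12 to 14.9), and the exact two-sided permutation test of the mean CPM gave p = 0.0571, where 4 against 4 libraries can give no less than 0.0286. Against 1 h (34 against 3 counts, ratio 10.2, counting interval 3.21 to 52.0) the exact two-sided permutation p was 0.0286. These are 2 of 6 such permutation tests, whose p-values were not adjusted, and the intervals cover counting error only. Of the 50-base stretches in *Cxcl3* transcripts, 126 (3.51%) also occur in *Cxcl2*, where they make up 5.84%, so that some reads of these genes cannot be assigned to 1 of them.

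AU-rich letters were denser in these neutrophil chemokines than in the other members. In the transcript with the longest annotated 3′ UTR, the pentamer ATTTA occurred 7 times in *Cxcl1*, 11 times in *Cxcl2* and 5 times in *Cxcl3*, or 11.8, 7.36 and 7.75 times per kilobase, and the median over 11360 tested genes was 1.21 per kilobase. Only 0.308%, 1.51% and 1.19% of these genes had a density as high as that of *Cxcl1*, *Cxcl2* and *Cxcl3*. *Cxcl10* had 3.01 per kilobase, *Cxcl16* 1.41, *Cxcl9* 1.22 and *Cxcl14* none. The octamer TTATTTAT occurred 3 times in *Cxcl1*, 5 times in *Cxcl2*, once in *Cxcl3* and in none of the other 4, and 14.4% of tested genes held it at least once.

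*Cxcl10*, the interferon-induced CXCR3 ligand, showed the largest fold change of the 5 genes tested. Its normalized counts in mice 1 to 4 were 55.4, 129, 66.6 and 117 in untreated BMDMs, 71.9, 86.7, 66.7 and 63.6 at 1 h, and 14.6, 9.40, 13.0 and 39.8 at 4 h. All 4 h libraries lay below all untreated and all 1 h libraries, and mouse 4 had the highest level at 4 h. The means were 92.0 ± 36.4 (SD, n = 4 mice), 72.2 ± 10.3 and 19.2 ± 13.9. At 4 h *Cxcl10* fell by 2.19 on the log2 scale (standard error 0.39, adjusted p = 0.000352 by edgeR), a level 4.55-fold lower than in untreated BMDMs, and it was 3.61-fold lower than at 1 h (adjusted p = 0.00165). The log2 ratio within a mouse ranged from -3.78 to -1.56 at 4 h. Without the 4 h library of mouse 4, the log2 fold change was -2.87 against untreated and -2.53 against 1 h. At 1 h it was -0.33 (95% interval -1.07 to 0.40, adjusted p = 0.577), lower in 2 of 4 mice. Of the exon bases of *Cxcl10*, 5.91% overlap *Art3* on the other strand, which had 6 counts in all 12 libraries together.

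*Cxcl9*, the neighbour of *Cxcl10* that encodes another CXCR3 ligand, had 0, 0, 3 and 1 counts in untreated BMDMs, 6, 4, 3 and 3 at 1 h, and 0, 5, 0 and 13 at 4 h. At 1 h every library held at least 3 counts, and at 4 h 13 of the 18 counts came from mouse 4, the mouse with the highest *Cxcl10* at that time. Mean levels of *Cxcl9* were 0.0506 CPM, 0.213 CPM and 0.196 CPM. The sum at 1 h was 16 against 4 counts in untreated BMDMs (ratio 4.01, 95% counting interval 1.29 to 16.5), and the exact two-sided permutation test of the mean CPM gave p = 0.0286. At 4 h the exact permutation p was 0.429, and the difference in mean CPM from untreated, 0.145, was 0.0381 without mouse 4 at 4 h. The interferon genes on the fixed list did not stand high in that library as a group, since it was the highest of the 4 h libraries for 1 of the 16 genes tested.

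*Cxcl14* was higher after 4 h. Normalized counts of *Cxcl14* in mice 1 to 4 were 46.8, 33.5, 57.9 and 65.7 in untreated BMDMs, 67.8, 36.0, 65.7 and 98.5 at 1 h, and 113, 91.9, 137 and 131 at 4 h. All 4 h libraries lay above all untreated ones, the 1 h group overlapped both, and mouse 2 was lowest in each group. The means were 51.0 ± 14.0 (SD, n = 4 mice), 67.0 ± 25.5 and 118 ± 20.3. The log2 fold change of *Cxcl14* at 4 h was 1.20 (standard error 0.26, adjusted p = 0.00186 by edgeR), or 2.30-fold, with log2 ratios from 1.00 to 1.46 in the 4 mice. Against 1 h it was 0.82 (standard error 0.25, adjusted p = 0.0205), a call that was lost without mouse 2 at 1 h (log2 fold change 0.61), mouse 3 at 4 h (0.74, adjusted p = 0.0593) or mouse 4 at 4 h (0.76, adjusted p = 0.0511). With all libraries and the mouse as a block, the difference from 1 h was 0.84 (adjusted p = 0.000221 by edgeR). At 1 h the log2 fold change was 0.39 (95% interval -0.19 to 0.97, adjusted p = 0.375), higher in 4 of 4 mice. The stromal marker sum had medians of 53.4 CPM in untreated BMDMs, 59.9 CPM at 1 h and 43.4 CPM at 4 h, and its part in the level of *Cxcl14* was not tested.

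*Cxcl16*, which encodes the transmembrane chemokine, was abundant and varied little. Its normalized counts in mice 1 to 4 were 6109.5, 6827, 7570.3 and 6705 in untreated BMDMs, 7146, 8292, 8313 and 8241 at 1 h, and 6142, 6713, 7178 and 7012 at 4 h. Mouse 1 was lowest in each group, and the groups overlapped. All 4 mice were higher at 1 h than untreated, by 0.135 to 0.298 on the log2 scale, and lower at 4 h than at 1 h, with log2 ratios of -0.30 to -0.21. The log2 fold change of *Cxcl16* was 0.23 (standard error 0.07, adjusted p = 0.0365 by edgeR), or 1.18-fold, at 1 h and -0.01 (95% interval -0.17 to 0.15, adjusted p = 0.944) at 4 h. Between 4 h and 1 h it was -0.24 (adjusted p = 0.0175). Both calls of *Cxcl16* were lost with scaling by library size only (log2 fold changes 0.16 and -0.15). The call at 1 h was also lost without the untreated library of mouse 1, 2 or 4 or the 1 h library of mouse 2, 3 or 4, and the call between the times without mouse 1 at 4 h. These fits did not use the mouse as a block. With the block and all 12 libraries, *Cxcl16* passed at 1 h (0.23, adjusted p = 0.00052 by edgeR) and between the times (-0.24, adjusted p = 0.000201). Of its exon bases 18.3% overlap *Zmynd15* on the other strand, which had 467 to 923 counts per library, and the strand setting of the counting is not given in the sources used here.

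**Figure D2:**
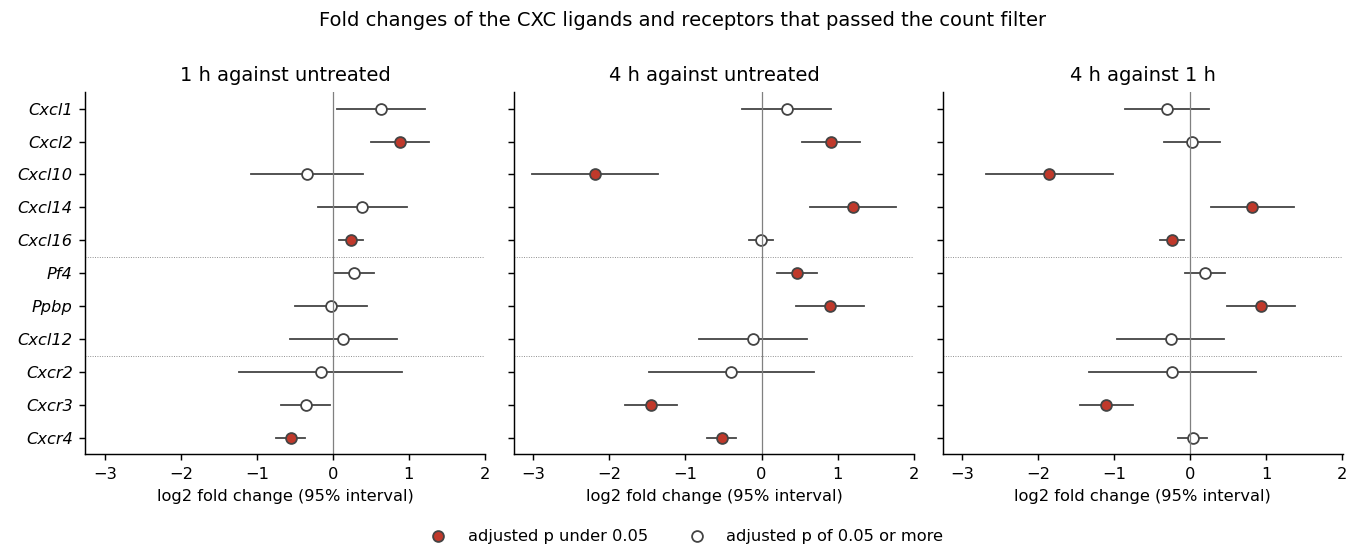
Log2 fold changes with 95% intervals (edgeR, 12 libraries) of the 11 CXC ligands and receptors that passed the count filter, in 3 comparisons; filled points passed. *Cxcl10* at -2.19 and *Cxcr3* at -1.46 lie farthest below 0 at 4 h, and *Cxcl14* at 1.20 farthest above.

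Levels of different genes were compared per length, as RPKM, the CPM divided by the length in kilobases of all annotated exons of the gene. In untreated BMDMs *Pf4*, the platelet factor that macrophages also make, was the most abundant CXC ligand at 633 ± 119 RPKM (SD, n = 4 mice), followed by *Cxcl16* at 115 ± 10.1 RPKM, and both stood apart from all ligands below them. *Pf4* made up 83.5% and *Cxcl16* 15.1% of the summed RPKM of the 15 CXC ligands. *Cxcl2* at 3.36 ± 0.978 RPKM came next, and *Ppbp*, *Cxcl10* and *Cxcl14* at 2.32, 2.08 and 1.42 RPKM each overlapped the gene above it. *Cxcl1* at 0.530 ± 0.164 RPKM lay below all of these, above *Cxcl12* at 0.168, while *Cxcl3* and *Cxcl9* at 0.0212 and 0.0168 RPKM could not be ordered. At 4 h *Cxcl2* was at 6.26 ± 0.653 RPKM, *Cxcl14* at 3.30 ± 0.568 RPKM and *Cxcl10* at 0.434 ± 0.315 RPKM, and *Cxcl10* then overlapped *Cxcl1* above it and *Cxcl12* below it.

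**Figure D3:**
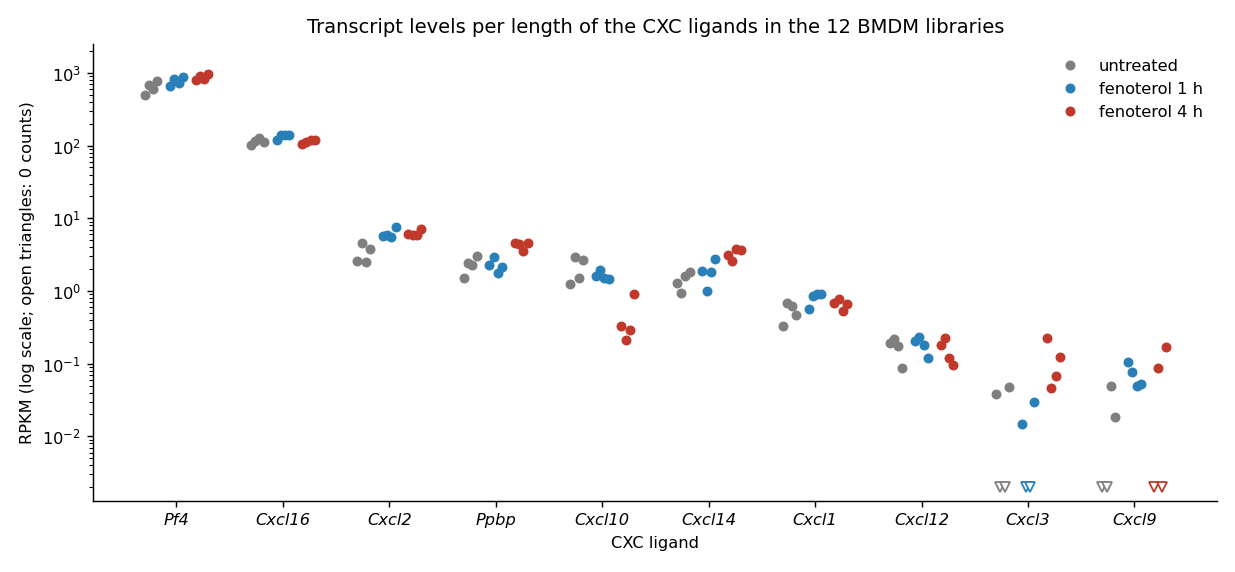
RPKM (log axis) of the 10 CXC ligands with the most reads in each of the 12 libraries, coloured by group; open triangles at the bottom are libraries with 0 counts. *Pf4* and *Cxcl16* stand above 100 RPKM in every library, and *Cxcl10* falls under 1 RPKM in all 4 libraries at 4 h.

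Of the other 8 CXC ligands, 3 were tested. *Pf4*, in the same cluster as *Cxcl1* to *Cxcl3*, had normalized counts of 6939, 9695, 8365 and 10826 in untreated BMDMs, 9202, 11734, 10173 and 12259.5 at 1 h, and 11446, 12897, 11623 and 13714 at 4 h. *Pf4* was higher than untreated in each mouse at both times, with a log2 fold change of 0.28 (adjusted p = 0.144 by edgeR) at 1 h. It was 0.47 (standard error 0.12, adjusted p = 0.00676) at 4 h. With the mouse as a block, *Pf4* also passed at 1 h (0.28, adjusted p = 0.000577) and between the times (0.20, adjusted p = 0.00457). *Ppbp*, the gene for another platelet chemokine, had 32.0, 52.3, 48.2 and 64.6 normalized counts in untreated BMDMs, 48.3, 61.9, 37.3 and 45.1 at 1 h, and 98.0, 94.0, 75.9 and 98.3 at 4 h. All 4 h libraries lay above the others, and the log2 fold change of *Ppbp* at 4 h was 0.90 (standard error 0.21, adjusted p = 0.00298). The 5 megakaryocyte markers summed to 0.246 to 0.995 CPM over the 12 libraries, with *Gp9* at 0 counts in all untreated and all 4 h libraries. Their median sum was 0.352 CPM in untreated BMDMs, 0.647 CPM at 1 h and 0.718 CPM at 4 h. *Itga2b*, the only 1 tested, did not pass at 4 h (log2 fold change 0.68, adjusted p = 0.241 by edgeR). *Pf4* alone averaged 457 CPM in untreated BMDMs and 633 CPM at 4 h. The part of megakaryocytes in the level of *Ppbp* was not tested. *Cxcl12*, the CXCR4 ligand, had 13 to 36 counts per library and log2 fold changes of 0.14 (95% interval -0.57 to 0.84) and -0.11 (-0.83 to 0.60) at the times. *Cxcl13*, *Cxcl15* and *Cxcl17* had 0 counts in all libraries, which allows up to 3 counts over a group, and *Cxcl5* and *Cxcl11*, the latter annotated as a polymorphic pseudogene, had at most 3 counts.

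Of the 8 receptors, 3 were tested, of which 1 was lower at 1 h and 2 were lower at 4 h, beside 10.1% and 20.4% of all genes tested. *Cxcr3*, the receptor for CXCL9 and CXCL10, had normalized counts of 155, 159.5, 197 and 187 in untreated BMDMs, 120.3, 139.7, 125 and 162 at 1 h, and 79.3, 50.1, 55.6 and 69.4 at 4 h. All 4 h libraries lay below all others. *Cxcr3* fell by 1.46 on the log2 scale at 4 h (standard error 0.16, adjusted p = 3.82e-06 by edgeR), or 2.74-fold, and at 1 h its log2 fold change was -0.36 (adjusted p = 0.124). *Cxcr4*, the abundant receptor for CXCL12, had normalized counts of 5282, 4395, 5432 and 4507 in untreated BMDMs, 3399.9, 2914, 3713 and 3310.3 at 1 h, and 3521, 3398, 3654 and 3065 at 4 h. All treated libraries lay below all untreated ones, by log2 fold changes of -0.56 (adjusted p = 0.000276) at 1 h and -0.53 (adjusted p = 0.000199) at 4 h. *Cxcr2*, through which CXCL1 to CXCL3 act, had 4 to 23 counts per library and did not pass in any comparison. *Ackr3*, an atypical receptor that binds CXCL12, had 0 counts in the 4 untreated libraries, 2 to 6 at 1 h and 4 to 13 at 4 h, which is at least 5.01-fold higher at 1 h and at least 10.8-fold higher at 4 h against 3 counts over the untreated group. *Cxcr6*, the receptor for CXCL16, and *Cxcr1* and *Cxcr5* had at most 4 counts per library, and *Ackr1* had none.

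**Figure D4:**
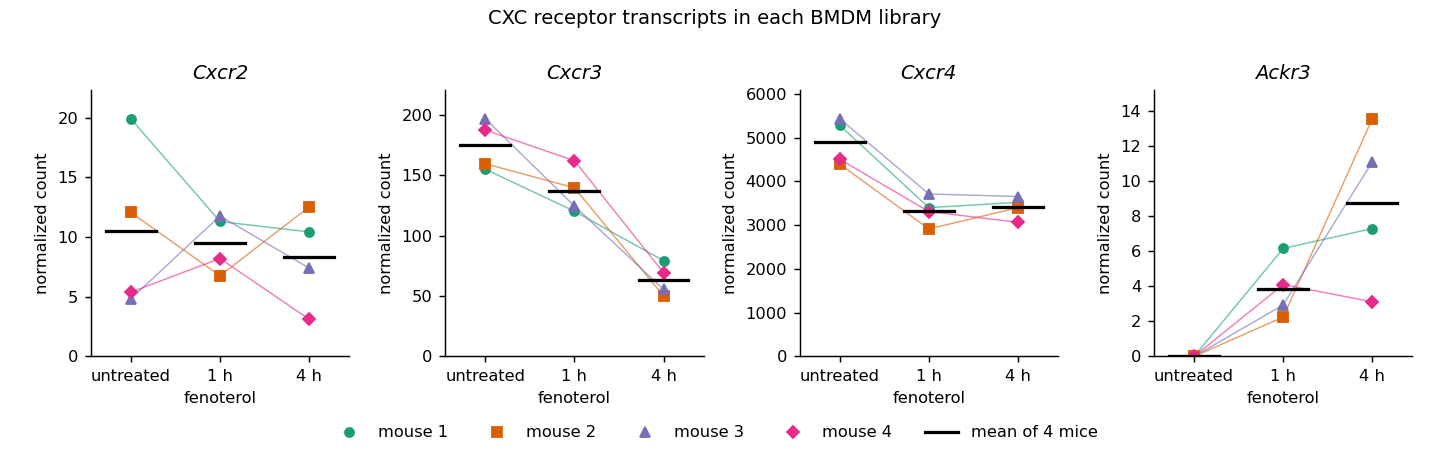
Normalized counts (linear axis from 0) of 4 CXC receptors in the 12 libraries, with lines joining the libraries of a mouse and black bars for the mean of 4 mice. *Cxcr3* falls to 50.1 to 79.3 at 4 h, *Cxcr4* is lower at both times, and *Ackr3* has 0 counts in the untreated libraries.

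The 4 other lists of genes that regulate these chemokines were described by counts. Over these lists, the other CXC ligands and the receptors, 49 of 62 genes were tested, and 18 passed at 1 h (36.7%), 27 at 4 h (55.1%) and 26 between the times (53.1%), beside 20.1%, 40.0% and 38.5% of all genes. Of the 14 NF-kB genes, 6 were higher and 2 lower at 1 h (57.1% called), and 6 were higher and 4 lower at 4 h (71.4%), with a median log2 fold change of 0.08 and 0.05. The gene for the inhibitor IkB epsilon, *Nfkbie*, rose most at 1 h, from 832 ± 79.1 to 2648 ± 225 normalized counts (log2 fold change 1.67, standard error 0.07, adjusted p = 3.91e-10 by edgeR), and was at 1162 ± 36.1 at 4 h (0.48, adjusted p = 8.93e-05). The 2 genes lower at 1 h were *Nfkbia* (-0.27), which encodes IkB alpha, and *Nfkbiz* (-0.92), which encodes a nuclear cofactor of NF-kB, and the subunit gene *Rela* did not pass (0.03).

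The next list holds 7 genes for the control of mRNA decay through AREs or by RNases. Of these, 2 were higher and 1 lower at 1 h (42.9% called, beside 20.1% of all genes tested). At 4 h 2 were higher (28.6%, beside 40.0%). *Zfp36*, which encodes the ARE-binding decay factor tristetraprolin, rose from 3502 ± 441 to 9581 ± 679 normalized counts at 1 h (log2 fold change 1.45, standard error 0.09, adjusted p = 2.26e-08 by edgeR) and was at 4433 ± 449.8 at 4 h (0.34, adjusted p = 0.00805). *Zc3h12a*, which encodes the RNase regnase-1, rose from 755 ± 8.52 to 2134 ± 129 at 1 h (1.50, adjusted p = 2.26e-10) and was at 1059.5 ± 86.4 at 4 h (0.49, adjusted p = 1.97e-05). The gene lower at 1 h was *Zfp36l1* (-0.91, adjusted p = 0.00114), a relative of *Zfp36*. At 4 h *Zfp36l1* did not pass (-0.33, adjusted p = 0.127 by edgeR), but it passed with the mouse as a block (-0.33, adjusted p = 0.000602).

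Of the 18 interferon genes, 16 were tested and *Ifnb1* and *Ifng* had 0 counts in all 12 libraries. At 1 h 3 were higher and 3 lower (37.5% called, beside 20.1% of all genes tested), and at 4 h 4 were higher and 4 lower (8 of 16 called, beside 40.0%), with median log2 fold changes of -0.04 and -0.0020. *Irf8*, which encodes a transcription factor of the macrophage lineage, fell from 6072 ± 646 normalized counts to 3624 ± 334 at 1 h and 2776 ± 237 at 4 h (log2 fold change -1.13, standard error 0.09, adjusted p = 1.05e-07 by edgeR). *Irf1* was also lower at both times (-0.73 and -0.61), and *Jak2* was higher at both times (0.31 and 0.68). *Irf7* ranged from 1599 to 5825 normalized counts among the untreated libraries and did not pass at 4 h (0.76, adjusted p = 0.144 by edgeR). It was higher at 4 h in 4 of 4 mice, by 0.18 to 1.86 on the log2 scale, and passed with the mouse as a block (0.92, adjusted p = 0.000596).

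The list of genes for ligand processing holds proteases that cut CXC chemokines and *Rhbdf2*, which encodes an inactive rhomboid that serves ADAM17. The 6 of 7 tested lay within -0.06 to 0.10 on the log2 scale at 1 h. At 4 h *Adam10*, the main sheddase of CXCL16, was higher (0.25, adjusted p = 0.00296 by edgeR), and *Adam17* (-0.76) and the macrophage elastase gene *Mmp12* (-0.92) were lower. *Dpp4*, which encodes a peptidase that truncates CXCL10, had at most 10 counts per library.

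**Figure D5:**
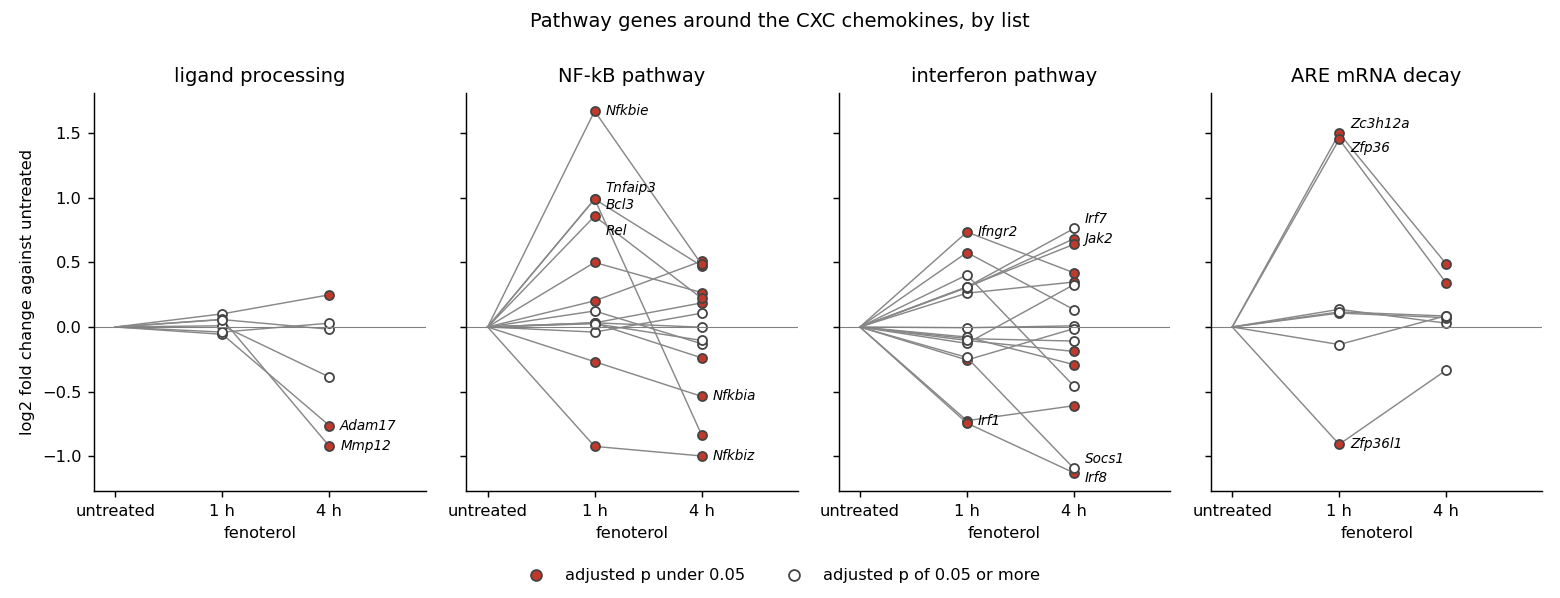
Log2 fold changes against untreated BMDMs of the tested genes on 4 fixed lists, with lines joining the values of a gene at 1 h and 4 h; filled points passed by edgeR. *Nfkbie*, *Zfp36* and *Zc3h12a* peak at 1 h at 1.67, 1.45 and 1.50, and *Irf8* reaches -1.13 at 4 h.

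The genes whose course over the 12 libraries was most like that of a member were named by the root mean square difference of centred log2 normalized counts. For *Cxcl2* these were *Tmem132a* (0.20), *Ehd1* (0.22) and *D8Ertd738e* (0.22), and for *Cxcl16* *Chmp1b* (0.07), *Gart* (0.08) and *Zfp330* (0.08). For *Cxcl10* the nearest were *Nat8l* (0.36), *Ptchd1* (0.38) and *Pparg* (0.43), each at least 2.05 lower on the log2 scale at 4 h. For *Cxcl14* they were *Atp8b4* (0.31), *Epn2* (0.31) and *Sel1l3* (0.33), and for *Cxcl1* *Aste1* (0.22), *Hnrnpa0* (0.25) and *Marcksl1* (0.26). The comparison covered 10289 or 10290 genes with a mean of at least 50 normalized counts, and the spread of a member's own counts sets how near any gene can come.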

How the data were processed

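RNA of 12 BMDM libraries was sequenced in 1 lane from a stranded mRNA protocol, with single reads 50 bases long. The authors mapped the reads to GRCm38 with TopHat2 2.0.11, counted them per gene with HTSeq 0.8.0 and deposited raw counts, which are not normalized. The strand setting and annotation release are not given in the sources used here. The study's own analysis used vsn and limma. From the deposited counts, edgeR 4.0.16 was used in 1 fit of the 12 libraries with a mean per group: filterByExpr, TMM factors and the quasi-likelihood test, with Benjamini-Hochberg adjustment over the 12386 genes tested. Normalized counts are scaled to the mean effective library of 19616700 counts, and RPKM divides by the union of annotated exons in GENCODE M21 (53274 of 53379 genes matched). The biological coefficient of variation was 0.112. For *Cxcl3* and *Cxcl9*, exact two-sided permutation tests of mean CPM were used, and a group at 0 was set to 3 counts.

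A replicate number marks 1 mouse across the groups. The deviations of its libraries from the group means correlated at 0.290 to 0.561 (median 0.389, 12 pairs), and those of different mice at -0.304 to 0.0912 (36 pairs), so the mouse as a block was an alternative. Others were DESeq2 1.42.0, limma-voom (limma 3.58.1), RLE, library size only, no filter, a mean count of at least 50, only the 2 groups compared, and each library left out. Named genes are the 7 members, the other CXC ligands and receptors, genes of the NF-kB, interferon, ARE decay and ligand processing lists with an adjusted p under 0.05 and at least 2-fold against untreated, the members' 3 nearest genes, and further list genes named after their values were seen (*Nfkbia*, *Nfkbiz*, *Rela*, *Zfp36l1*, *Irf1*, *Irf7*, *Jak2*, *Adam10*, *Adam17*, *Mmp12*, *Dpp4*, *Rhbdf2*, *Ifnb1*, *Ifng* and the markers named). The members and lists were chosen with earlier results of these data known. Depth limits genes with few counts, and p-values rest on 4 mice. The scripts were tested on simulated data. 1 gene of the lists is not reported here by name.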

Additional observations from a re-analysis of the deposited data

Results flagged for a closer look

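The 1 h library of mouse 1 stood apart for *Cxcl16*, at 7146 normalized counts where the other 3 libraries had 8241 to 8313; it was 1 of 39 sets of 4 values with such a gap, and chance gives about 1 in 20. The response differed between the times, by the edgeR test of 4 h against 1 h, for *Cxcl10* (log2 fold change -1.85, adjusted p = 0.00165, lower at 4 h in 4 of 4 mice), *Cxcl14* (0.82, adjusted p = 0.0205, higher in 4 of 4), *Cxcl16* (-0.24, adjusted p = 0.0175, lower in 4 of 4), *Ppbp* (0.93, adjusted p = 0.00274, higher in 4 of 4) and *Cxcr3* (-1.10, adjusted p = 8.28e-05, lower in 4 of 4). The same held, each lower at 4 h than at 1 h in 4 of 4 mice, for *Nfkbie* (-1.19, adjusted p = 1.37e-08), *Zfp36* (-1.11, adjusted p = 3.18e-07), *Zc3h12a* (-1.01, adjusted p = 1.42e-08) and *Irf8* (-0.38, adjusted p = 0.00279).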

How the results depend on the processing

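The number of CXC chemokines called at 1 h, 2, was 1 with scaling by library size only and 1 to 2 with a library left out, because *Cxcl16* was lost. The cause of the loss was not tested. The calls of *Cxcl2* at both times, of *Cxcl10* and *Cxcl14* at 4 h and of *Cxcr3* and *Cxcr4* against untreated held under all 20 alternatives. Without the filter on low counts *Cxcl3* passed at 4 h (log2 fold change 2.30, adjusted p = 0.0469) and against 1 h (3.17, adjusted p = 0.0113), and *Cxcl9* did not pass at 1 h (1.90, adjusted p = 0.368) or 4 h (1.85, adjusted p = 0.261). The mouse as a replicate block changed no call of the 5 members tested, of the other CXC ligands and receptors tested except *Pf4*, or of *Nfkbie*, *Zfp36*, *Zc3h12a* and *Irf8*. Of the other genes the text gives a value for on the 4 regulating lists, it added *Irf7* at 4 h (0.92) and between the times (0.57), *Zfp36l1* at 4 h (-0.33) and *Adam10* between the times (0.15). In this paired fit 2, 3 and 3 members passed at 1 h, 4 h and between the times, while pathway calls went from 18, 27 and 26 to 21, 33 and 32 at 1 h, 4 h and between the times. Calls among all 12386 genes tested also rose, from 2493, 4958 and 4773 to 3348, 5870 and 5775. No value that changed direction was a call, before or after the change. With a library left out, the log2 fold change at 1 h ranged from -0.067 to 0.30 for *Cxcl12*, -0.41 to 0.41 for *Cxcr2* and -0.20 to 0.14 for *Ppbp*, that at 4 h from -0.35 to 0.070 for *Cxcl12*, -0.057 to 0.036 for *Cxcl16* and -0.65 to 0.18 for *Cxcr2*, and that between the times from -0.050 to 0.14 for *Cxcl2*, -0.49 to 0.072 for *Cxcr2* and -0.028 to 0.080 for *Cxcr4*. The difference of *Cxcl9* between the times ranged from -0.124 to 0.0482 CPM. With limma-voom the 1 h value was 0.042 for *Cxcr2* and 0.010 for *Ppbp*, and *Cxcl16* at 4 h was 0.016 with library size only and 0.000971 with no filter. Scaling by library size only moved the median of all genes by -0.07 at 1 h, 0.02 at 4 h and 0.09 between the times. At 14 to 34 counts per library, the interval of *Cxcl1* at 1 h reached from 0.06 to 1.21 on the log2 scale.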
